A study of Mus musculus with 6 samples.

Results

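Translation initiation and elongation factors are the soluble proteins that load messenger RNA and initiator tRNA onto the ribosome and then carry tRNAs through it. The genes were chosen by symbol, as every protein-coding gene whose symbol begins with Eif or Eef, except *Eif2ak3*, a further gene for a kinase of eIF2. This gave 68 genes of the 54115 that received an annotation (21805 of them protein coding). RNA was extracted from livers of male mice, 3 WT and 3 *Sirt7* KO, aged 24 months and fasted for 16 h before collection, and whole-liver RNA was sequenced after full-length cDNA amplification. The KO allele is carried by all cells, both genotypes were bred as littermates from heterozygous parents on a C57BL/6J background, and SIRT7 is a nuclear NAD-dependent deacylase. All animals shared age, sex and fasting, so no fed, young or female liver stands beside them. Whole-liver RNA cannot tell a smaller number of cells of a type from less RNA per cell.

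In initiation, eIF2 brings the initiator tRNA to the small ribosomal subunit as a ternary complex with GTP, and eIF3 binds that subunit. The factors eIF4E, eIF4G and eIF4A recognize the capped end of the mRNA and unwind it. Initiation is restrained in fasting and stress by kinases that phosphorylate eIF2 and so block its exchange factor eIF2B, and by the 4E-binding proteins, which sequester eIF4E when the nutrient-sensing kinase complex mTORC1 is inactive. In elongation, eEF1A delivers aminoacyl-tRNAs and eEF2, which the kinase eEF2K inhibits, moves the ribosome along. Much of this control acts on protein phosphorylation and on translation, which mRNA levels do not record.

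Promoters of these genes were read from RefSeq (GRCm38.p6), as windows from 250 bases before to 50 bases after a transcription start, and 52 of the 68 genes had at least 1 window. The E-box with the letters CACGTG, the binding motif of MYC and USF proteins, is the same on both strands and was held by 13 of these genes (25%), by 11.8% of the other 9230 tested genes with a window and by 8.09% of all 27025 genes. The 6 examples below, chosen after the matches were seen for factors of different roles, are given as 30 bases in the direction of transcription, with the E-box in capitals.
*Eif3f* chr7:108934335-108934364 (plus strand): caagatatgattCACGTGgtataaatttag
*Eif4e* chr3:138527192-138527221 (plus strand): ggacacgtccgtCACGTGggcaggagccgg
*Eif4g1* chr16:20672661-20672690 (plus strand): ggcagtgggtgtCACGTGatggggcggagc
*Eif4a1* chr11:69672595-69672624 (minus strand): cgatcgcctccgCACGTGtaaaggtgctgg
*Eef2* chr10:81176576-81176605 (plus strand): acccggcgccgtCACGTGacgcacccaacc
*Eef2k* chr7:120842788-120842817 (plus strand): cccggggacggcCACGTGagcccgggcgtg
The box shown begins 68 bases before the start in *Eif3f*, 64 in *Eif4e*, 54 in *Eif4g1*, 189 in *Eif4a1*, 43 in *Eef2* and 31 in *Eef2k*. Another box begins 228 bases before the start in *Eif4e* and at position 15 from the start in *Eif4g1*. The boxes of *Eif4e* and *Eif4g1* lie inside the annotated genes, which begin at chr3:138526179 and chr16:20668313, so these starts are internal ones. The genes with the box did not stand apart in the comparison of genotypes, with a median log2 fold change (*Sirt7* KO over WT) of -0.11 over 12 fitted genes, against -0.10 over the 38 fitted genes without it. Other motifs were searched on both strands. CCAAT was found in 30.8% of the factor genes and 43.1% of the other tested genes, and the cAMP response element TGACGTCA in 1.92% and 3.52%. The core of the ATF4 response element, TGATGCAA, was found in 0 of the 52 factor genes and in 0.737% of the other tested genes. The letters describe these windows, and whether any factor was bound there was not measured.

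Each liver gave between 9994860 and 13424776 reads on transcripts. *Sirt7* itself gave 55.2, 45.5 and 47.3 CPM (counts scaled to library size with edgeR's TMM factors) in WT livers, against 28.6, 41.8 and 40.8 CPM in KO livers. All KO livers lay below all WT livers, while the fitted log2 fold change of -0.41 had an adjusted p of 0.42 in edgeR's quasi-likelihood test. These counts sum all transcripts of the gene, and which part of it gave the reads in KO livers was not examined. They are thus no measure of intact *Sirt7* mRNA. The paper measured *Sirt7* in WT and KO liver by qRT-PCR, where its legend lists a mark for not detected. Of 8 hepatocyte markers 7 were detected in every mouse, with a summed level of 41757 to 52305 TPM (counts scaled to transcript length and library size) in WT and 42903 to 43930 in *Sirt7* KO livers (the eighth symbol, Tf, matched no gene). Summed markers of lymphocytes and plasma cells (8 of 9 detected in every mouse) ranged from 13.55 to 17.9 TPM in WT and 9.01 to 13.58 in *Sirt7* KO livers, a narrow overlap. The sums also overlapped between genotypes for Kupffer cells (8 of 8, 23.1 to 72.5 and 26.2 to 57.7 TPM), endothelial cells (7 of 7, 26.7 to 35.9 and 32.9 to 49.4), stellate cells (7 of 7, 77.7 to 102 and 61.9 to 98.1) and cholangiocytes (5 of 5, 31.3 to 49.1 and 36.4 to 43.6). No marker gene of these lists reached an unadjusted p under 0.05 in edgeR's test, and the part of cell composition in the results below was not tested.

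Per length of transcript, the tested factor mRNAs ranged in WT livers from a mean of 0.624 TPM (*Eif2ak4*) to 1557 TPM (*Eif1*). TPM, which corrects for transcript length, allows genes to be compared. *Eef1a1*, which encodes the main eEF1A, stood at 1025 ± 57.5 TPM in WT and 902 ± 148 in *Sirt7* KO livers (SD, n = 3). *Eif5a*, whose product carries the amino acid hypusine and helps the ribosome through stretches such as polyproline, was at 366 ± 26.1 and 360 ± 67.3 TPM, *Eif5*, the GTPase activator of eIF2, at 393 ± 38.5 and 329 ± 41.1, and *Eef2* at 182 ± 28.1 and 154 ± 12.3. *Eif1*, which guards the choice of the start codon, had the highest sum, 1557 ± 271 and 1012 ± 281 TPM. Its place rests on 1 short transcript: Eif1-202, of 383 bases and not annotated as coding, took 1016, 1381 and 938 TPM in the WT and 852, 639 and 590 in the *Sirt7* KO livers, while the full coding transcript Eif1-201 took 278, 309 and 289 in WT and 308, 214 and 204 in *Sirt7* KO livers. *Eif5a* and *Eif5* could not be ordered, since their values overlapped in WT (336 to 381 and 354 to 431 TPM) and in *Sirt7* KO livers (282 to 406 and 282 to 357 TPM).

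These 5 genes held 61.3 to 68.2% of all TPM on factor genes. Subunits of the eIF3 complex ranged in WT livers from 5.85 TPM (*Eif3j1*) to 96.4 TPM (*Eif3g*). The 3 kinases of eIF2 among the chosen genes were low, between 0.624 and 9.55 TPM in WT. At the low end 4 genes had too few reads to be tested. *Eef1a2*, the eEF1A of muscle and neurons, was at 0 reads in every mouse. *Eif5a2* had 2 reads in *Sirt7* KO mouse 1 and 0 in the others, and *Eif4e1b*, an oocyte form of eIF4E, had 1 read in *Sirt7* KO mouse 2 and 0 in the others. *Eef1akmt3*, a methyltransferase of eEF1A, had 8, 5 and 0 reads in WT and 5, 0 and 0 in *Sirt7* KO mice.

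**Figure D1:**
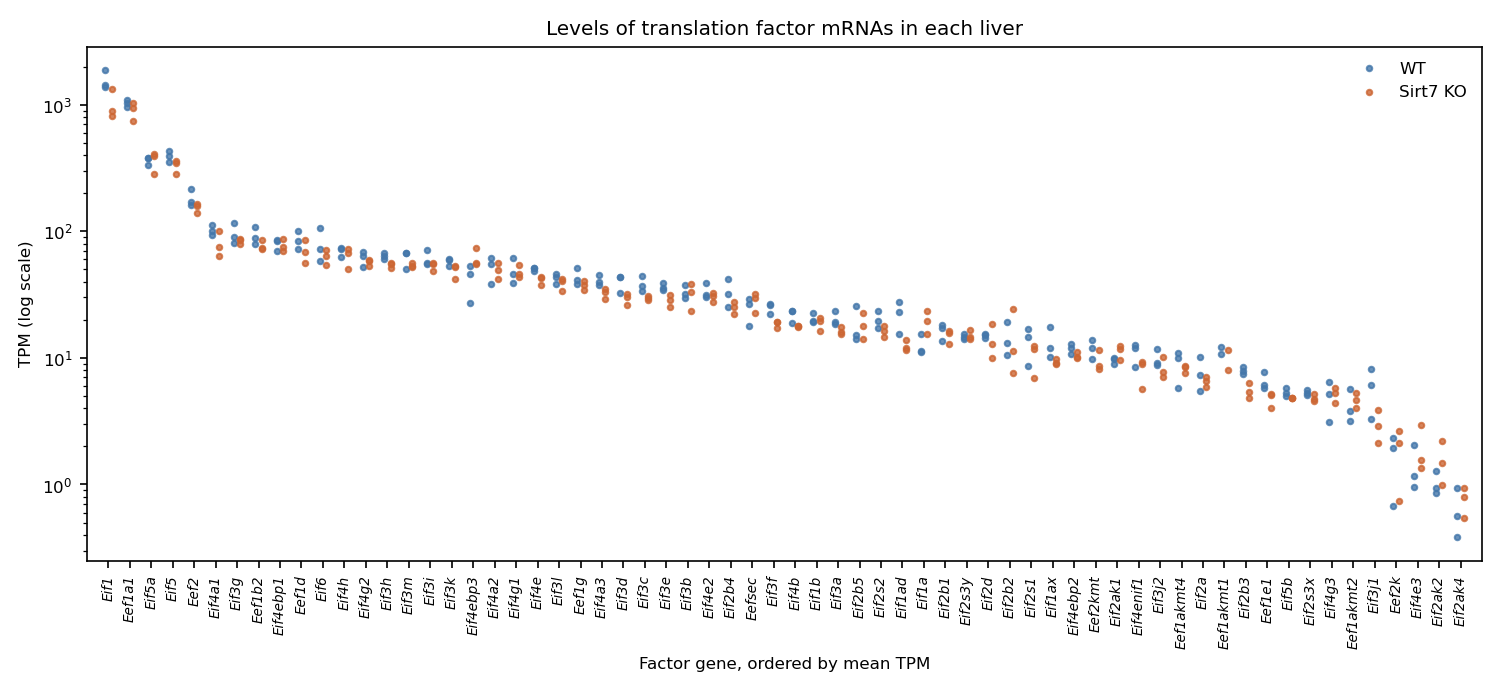
TPM on a log scale (vertical axis) of each factor gene with a mean of at least 0.5 TPM (horizontal axis, ordered by mean) in the 3 WT (blue) and 3 *Sirt7* KO (orange) livers, 1 point per liver. *Eif1* and *Eef1a1* stand at the top and *Eif2ak4* at the low end, and the zeros of *Eef1akmt1* in WT mouse 3 and *Sirt7* KO mouse 1 cannot be drawn.

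Summed, the factor mRNAs made up a slightly smaller part of the library in *Sirt7* KO than in WT livers. They held 0.736, 0.651 and 0.620% of the reads in the WT and 0.584, 0.559 and 0.551% in the *Sirt7* KO livers, and 5561, 5628 and 4898 TPM against 4322, 4462 and 4336 TPM. On both scales all WT livers lay above all *Sirt7* KO livers. The separation in TPM rested on *Eif1*, without which the sums overlapped, at 4135, 3760 and 3521 TPM in WT and 2988, 3571 and 3525 TPM in *Sirt7* KO livers. In reads it remained without *Eif1*, at 0.675, 0.580 and 0.560% against 0.521, 0.520 and 0.514%. These shares are of total reads, and a fit on total reads without a scaling factor moved the median over all 12524 tested genes from a log2 fold change of -0.0061 to -0.11.

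Gene by gene, no factor gene was called. In edgeR's quasi-likelihood test with TMM scaling, over all 12524 genes that passed the expression filter, 0 of the 64 tested factor genes had an adjusted p under 0.05 with a fold change over 1.5, a call made for 0.00798% of all genes (1 of 12524). At an unadjusted p under 0.05 stood 4 factor genes, 3 lower and 1 higher in *Sirt7* KO livers, where 11.3% of all genes did (4.78% lower, 6.54% higher). The count was 2 without WT mouse 1, 1 without WT mouse 2 and 7 without *Sirt7* KO mouse 1. Of all genes 9.20%, 8.95% and 17.1% did so in these fits. Of the 4 factor genes of the full fit, 0, 1 and 2 were among those counted. DESeq2 likewise called 0 factor genes, where it called 1.78% of all genes, or 1.93% with transcript-length offsets. For 38 of the 64 genes the 95% interval of the fold change lay within 1.5-fold in either direction. For the other 26 it reached beyond, so a difference of that size remained possible at this depth and number of mice.

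Direction was uneven. The log2 fold change was below 0 for 47 of the 64 factor genes, against 50.7% of all tested genes, and its median was -0.10 against -0.0061. Without a scaling factor, on total reads, 55 of the 64 were below 0, against 63.4% of all genes, and the median was -0.21 against -0.11. The quartiles of the factor genes were -0.18 and 0.0031, closer together than the -0.23 and 0.24 of all tested genes, and factor genes were also better measured, with a median of 43.8 CPM against 11.5. No factor gene lay beyond *Eif4enif1* at -0.50 or *Eif4ebp3* at 0.61. The livers of the genotypes did not overlap, all of one lying above all of the other, for 7 factor genes that were lower and 2 that were higher in *Sirt7* KO mice, so for 9 of 64, where 16.8% of all genes did so (8.09% lower, 8.74% higher). In this fit the share of factor genes, 14.1%, was thus not above that of all genes, but this depended on the setting. It was 21.9% against 17.2% under upper quartile scaling, 29.7% against 18.5% on total reads, 25% against 16.2% with length offsets in edgeR and 25.4% against 9.76% with length offsets in DESeq2, which was run without the expression filter. Leaving out 1 mouse, which makes overlap rarer, gave 13 to 21 factor genes where 23.7 to 36.4% of all genes did not overlap.

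**Figure D2:**
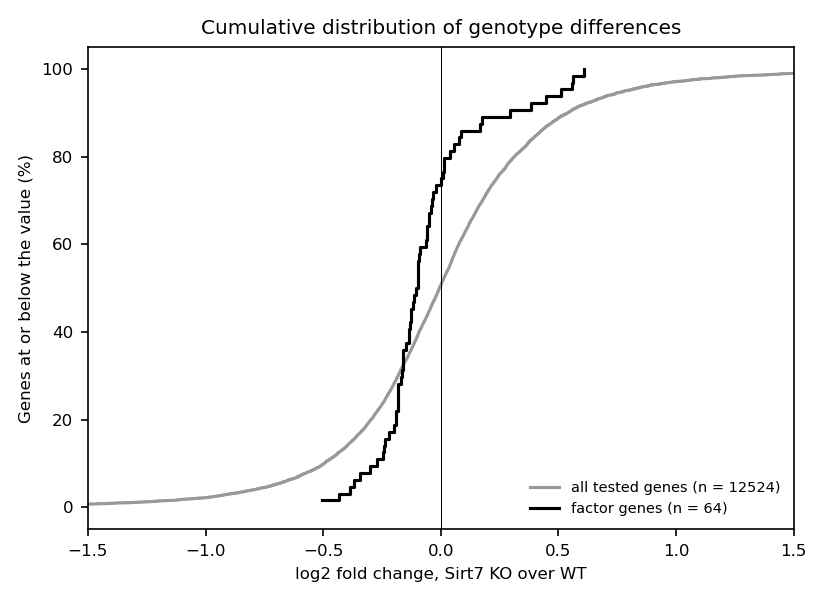
Percentage of genes (vertical axis) at or below each log2 fold change, *Sirt7* KO over WT (horizontal axis), for the 64 tested factor genes (black) and all 12524 tested genes (grey, drawn between -1.5 and 1.5). The black curve crosses 0 with 47 of its 64 genes already counted, and is steeper than the grey one.

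Relative to its own mean over the 6 livers, the median factor gene was at 0.08, 0.11 and -0.027 on the log2 scale in the WT livers and at -0.042, -0.047 and -0.064 in the *Sirt7* KO livers. WT mouse 3 lay close to the *Sirt7* KO livers, and the other 2 WT mice lay above it by more than the *Sirt7* KO livers lay below it. The same quantity over all tested genes stayed between 0.0003 and 0.026 in every liver. Among the groups of factors, the cap-binding and helicase genes had medians of 0.033, 0.12 and 0.027 in WT and -0.016, -0.11 and -0.072 in *Sirt7* KO livers, without overlap. Their summed level was 492, 479 and 492 TPM in WT and 420, 428 and 432 TPM in *Sirt7* KO livers. The medians of the elongation factors also did not overlap, at 0.12, 0.091 and -0.041 in WT and -0.15, -0.089 and -0.056 in *Sirt7* KO livers. Their summed levels did overlap, at 1593, 1431 and 1353 against 1078, 1410 and 1332 TPM. The medians of the 3 kinases of eIF2 were separated in the other direction, at 0.072, -0.25 and -0.25 against 0.58, 0.092 and 0.27. For the ternary complex and scanning genes *Sirt7* KO mouse 1, at 0.062, lay among the WT livers (0.043, 0.10 and 0.090), while the other 2 *Sirt7* KO mice were at -0.11 and -0.16.

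**Figure D3:**
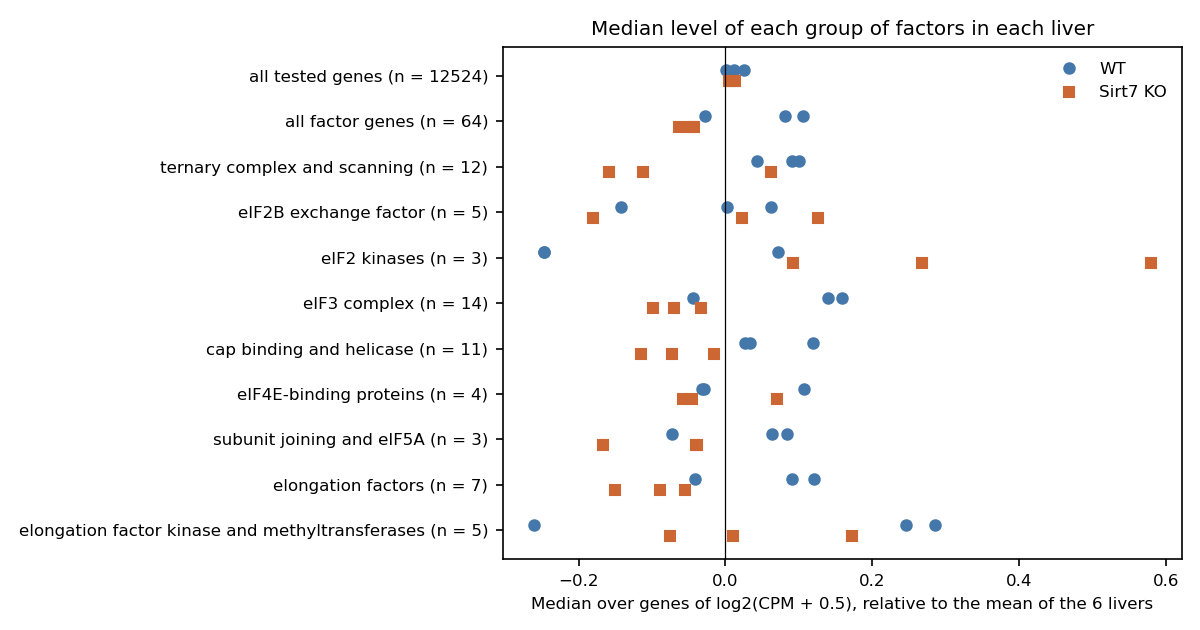
Median over genes of log2(CPM + 0.5) relative to each gene's mean over the 6 livers (horizontal axis) for all tested genes, all factor genes and each group of factors (rows, n genes), with 1 point per liver, WT as blue circles and *Sirt7* KO as orange squares. The *Sirt7* KO livers lie left of WT for all factor genes by a narrow margin (-0.042 against -0.027 at the nearest livers). They lie right of WT for the 3 kinases of eIF2 that were among the chosen genes.

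The list for the ternary complex and scanning held 12 tested genes, *Eif1ad*, *Eif2a* and *Eif2d* among them. Of these 12 genes 10 had a log2 fold change below 0, with a median of -0.16. *Eif1ad*, which encodes a protein with the RNA-binding fold of eIF1A, was at 30.7, 27.3 and 26.7 CPM in WT and 21.1, 23.3 and 20.3 CPM in *Sirt7* KO livers. The groups did not overlap, and the fitted log2 fold change was -0.39 ± 0.14 (standard error), with an unadjusted p of 0.025 and an adjusted p of 0.36 in edgeR's test. With any 1 mouse left out it stayed between -0.45 and -0.33, and with transcript-length offsets it was -0.76 in edgeR and -0.75 in DESeq2. *Eif5* was at 363, 359 and 331 CPM in WT and 303, 300 and 313 CPM in *Sirt7* KO livers, again without overlap, with a log2 fold change of -0.20 ± 0.13.

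*Eif1a*, one of the genes for eIF1A, differed in the other direction, most of all in 1 mouse. It was at 35.5, 27.8 and 28.3 CPM in WT and 64.8, 33.3 and 37.1 CPM in *Sirt7* KO livers. Mouse 3 of the *Sirt7* KO group also lay above all WT livers. The log2 fold change of 0.56 ± 0.25 became 0.21 without *Sirt7* KO mouse 1, and was 0.70 with length offsets in edgeR and 0.71 in DESeq2. Its unadjusted p, 0.052 in edgeR's test, was under 0.05 with RLE scaling, no filter, DESeq2, length offsets or the replicate block, but not without that mouse. *Eif1* was at 515, 701 and 568 CPM in WT and at 623, 395 and 364 CPM in *Sirt7* KO livers, where mouse 1 lay within the WT range and the other 2 below it. Its log2 fold change of -0.37 ± 0.23 became -0.65 without that mouse. *Sirt7* KO mouse 1 thus had the highest *Eif1a* and the highest *Eif1* of its genotype.

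The subunits of eIF2 itself differed little. *Eif2s1*, the α subunit that the stress kinases phosphorylate, was at 28.5, 22.7 and 31.9 CPM in WT and 25.4, 26.5 and 22.6 CPM in *Sirt7* KO livers, with a log2 fold change of -0.16 ± 0.17. The γ subunit has a gene on each sex chromosome, and both were read in these males. *Eif2s3x* was at 19.3, 22.4 and 22.9 CPM in WT and 20.9, 21.2 and 18.6 CPM in *Sirt7* KO livers, and *Eif2s3y* at 26.3, 31.8 and 28.6 against 32.0, 32.0 and 28.2 CPM. The ratio of *Eif2s3y* to *Eif2s3x* was 1.36, 1.42 and 1.25 in WT and 1.53, 1.51 and 1.52 in *Sirt7* KO livers. The ratios did not overlap, with p = 0.1 in a two-sided exact permutation test, the smallest that 3 mice against 3 can give, and this pair was compared after its values were seen. The annotated transcripts of *Eif2s3x* share 35.3% of their words of 31 bases with other genes, most of them with a pseudogene that received 0 reads.

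The eIF2B exchange factor and the kinases that oppose it did not move alike. Of the 5 eIF2B subunit genes 3 lay below 0, with a median of -0.037. *Eif2b3*, the γ subunit, was at 10.8, 13.4 and 13.0 CPM in WT and 9.34, 10.4 and 7.90 CPM in *Sirt7* KO livers, a log2 fold change of -0.43 ± 0.20 without overlap and with an adjusted p of 0.47 in edgeR's test. The other subunits lay between -0.061 and 0.17. All 3 kinase genes of the set, which leaves out *Eif2ak3*, lay above 0, at a median of 0.38. None reached an unadjusted p under 0.05 in edgeR's test.

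*Eif2ak1*, which encodes the heme-regulated kinase HRI, was at 42.3, 44.3 and 47.0 CPM in WT and 50.1, 54.3 and 59.3 CPM in *Sirt7* KO livers. All *Sirt7* KO livers were higher, with a log2 fold change of 0.29 ± 0.14 and an adjusted p of 0.46 in edgeR's test. On the TPM scale the genotypes overlapped, at 9.90, 8.96 and 9.79 TPM in WT and 9.69, 11.9 and 12.5 TPM in *Sirt7* KO livers. *Eif2ak4*, which encodes GCN2, the sensor of uncharged tRNAs, was at 4.15, 3.08 and 2.29 CPM in WT and 5.95, 3.28 and 4.72 CPM in *Sirt7* KO livers, and *Eif2ak2*, which encodes PKR, the sensor of double-stranded RNA, at 5.84, 4.35 and 4.59 against 8.52, 5.93 and 4.82 CPM. Both overlapped between genotypes, with log2 fold changes of 0.56 ± 0.36 and 0.38 ± 0.30 from 31 to 93.0 reads per mouse. For *Eif2ak2* the value was 0.13 without *Sirt7* KO mouse 1 and 0.69 with length offsets in edgeR, and for *Eif2ak4* it was 0.34 without that mouse.

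Of the eIF3 complex, 13 of the 14 genes lay below 0, with a median of -0.15. Its summed level was 651, 586 and 539 TPM in WT and 476, 513 and 506 TPM in *Sirt7* KO livers. Relative to its own mean, the median eIF3 gene was at 0.16, 0.14 and -0.044 in WT on the log2 scale. In *Sirt7* KO livers it was at -0.070, -0.033 and -0.099, so on this measure WT mouse 3 lay among the *Sirt7* KO livers. *Eif3f* was at 40.6, 39.0 and 40.4 CPM in WT and 34.2, 28.4 and 32.0 CPM in *Sirt7* KO livers, with a log2 fold change of -0.34 ± 0.14, an unadjusted p of 0.033 and an adjusted p of 0.38 in edgeR's test. The WT livers lay close together, and every *Sirt7* KO liver lay below them. Neither *Eif3f* nor its partner subunits passed the adjusted threshold.

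Among the remaining subunits, *Eif3e* and *Eif3h* were chosen for their separation after their values were seen. *Eif3e* was at 54.6, 56.0 and 52.0 CPM in WT and 46.7, 47.7 and 37.7 CPM in *Sirt7* KO livers, and *Eif3h* at 74.3, 77.0 and 72.3 against 65.2, 69.4 and 61.3 CPM. Their log2 fold changes were -0.30 ± 0.14 and -0.19 ± 0.13. *Eif3c* was close to *Eif3h*, at -0.18 ± 0.14, while *Eif3a* was at -0.13 ± 0.14 and *Eif3b* at -0.020 ± 0.15. *Eif3d*, at 0.015 ± 0.15, was the single subunit above 0, though on total reads or with length offsets all 14 were below 0. *Eif3j2* shares 94.9% of its words of 31 bases with other genes, nearly all with *Eif3j1*, so reads of the pair could not be divided with certainty; summed, the pair had a log2 fold change of -0.18 ± 0.22.

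The list for cap binding and unwinding held 11 tested genes, *Eif4a3* among them, and 9 were below 0, with a median of -0.096. *Eif4b*, the cofactor of the helicase eIF4A, was at 94.5, 99.3 and 83.0 CPM in WT and 79.6, 77.5 and 72.5 CPM in *Sirt7* KO livers, without overlap (log2 fold change -0.27 ± 0.14, named after its values were seen). *Eif4e*, the cap-binding protein, was at 40.1, 47.2 and 49.7 CPM in WT and 48.1, 37.5 and 36.5 CPM in *Sirt7* KO livers. *Eif4g1*, the scaffold, was at 164, 180 and 154 against 158, 165 and 143 CPM. Both overlapped, with log2 fold changes of -0.17 ± 0.16 and -0.09 ± 0.14. On the TPM scale *Eif4e* did not overlap, at 48.5, 51.7 and 51.7 TPM in WT and 37.5, 43.0 and 43.4 TPM in *Sirt7* KO livers.

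The helicase eIF4A has 2 closely related genes, both expressed in these livers. *Eif4a1* was at 139, 131 and 135 CPM in WT and 149, 90.6 and 104 CPM in *Sirt7* KO livers, so mouse 1 of the *Sirt7* KO group lay above all WT mice and the others below them. A processed pseudogene, *Eif4a-ps4*, with which its transcripts share 25.6% of their words of 31 bases, received 4064 reads beside the 8469 of *Eif4a1*. Added together, the pair was at 196, 213 and 196 CPM in WT and 180, 157 and 170 CPM in *Sirt7* KO livers, without overlap. Its log2 fold change was -0.25 ± 0.13, with an unadjusted p of 0.090 in edgeR's test. This sum was formed after the counts were seen. *Eif4a2* was at 95.8, 75.8 and 117 CPM in WT and 89.6, 102 and 89.5 CPM in *Sirt7* KO livers, a log2 fold change of -0.034 ± 0.18. *Eif4e3*, a rare form of eIF4E, was at 2.96, 2.72 and 5.62 against 4.58, 3.71 and 7.90 CPM, with a log2 fold change of 0.51 ± 0.41 and a wide overlap.

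The proteins that bind eIF4E held both extremes of the whole family. *Eif4ebp3* (4E-BP3) was at 25.1, 17.0 and 32.0 CPM in WT and 46.8, 33.3 and 33.0 CPM in *Sirt7* KO livers. Every *Sirt7* KO liver was higher than every WT liver, though *Sirt7* KO mice 2 and 3 lay just above WT mouse 3. Its log2 fold change was 0.61 ± 0.24, with an unadjusted p of 0.035 and an adjusted p of 0.39 in edgeR's test. The annotated transcript shares 66.4% of its words of 31 bases with 1 gene, the overlapping readthrough gene *AC115631.1*. With the reads of that gene added, it was at 31.9, 21.8 and 38.8 CPM in WT and 49.5, 41.8 and 37.7 CPM in *Sirt7* KO livers, and the genotypes overlapped. The log2 fold change of this sum, formed after the counts were seen, was 0.48 ± 0.22, with an unadjusted p of 0.055 in edgeR's test.

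The more widely studied 4E-BPs showed no such difference. *Eif4ebp1* was at 68.7, 75.8 and 60.1 CPM in WT and 66.1, 64.5 and 74.0 CPM in *Sirt7* KO livers, with a log2 fold change of 0.0014 and a 95% interval of -0.33 to 0.33 in edgeR's fit. *Eif4ebp2* was at 56.9, 62.4 and 63.8 against 56.9, 59.2 and 60.7 CPM, and its log2 fold change of -0.051 had a 95% interval of -0.34 to 0.24. *Eif4enif1*, which encodes the eIF4E transporter 4E-T, was at 21.5, 20.1 and 13.7 CPM in WT and 13.1, 11.6 and 14.3 CPM in *Sirt7* KO livers. WT mouse 3 lay among the *Sirt7* KO livers, and the log2 fold change of -0.50 ± 0.21 had an unadjusted p of 0.041 and an adjusted p of 0.41 in edgeR's test.

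**Figure D4:**
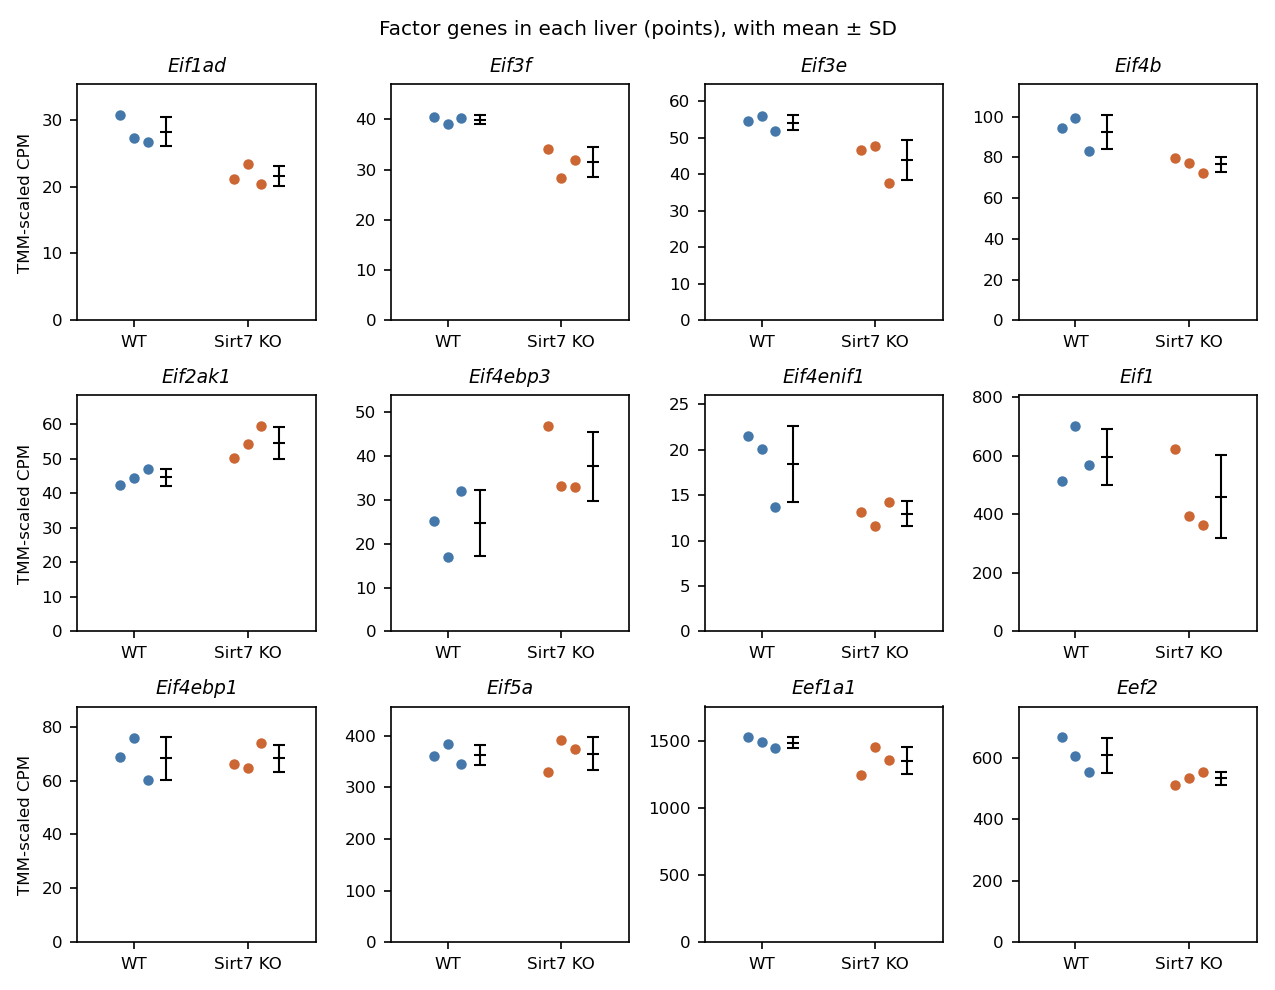
TMM-scaled CPM (vertical axes, from 0) of 12 factor genes in the 3 WT (blue) and 3 *Sirt7* KO (orange) livers, with the mean ± SD of each genotype. *Eif1ad*, *Eif3f*, *Eif3e*, *Eif4b*, *Eif2ak1* and *Eif4ebp3* show no overlap, and *Eif4enif1*, *Eif1*, *Eif4ebp1*, *Eif5a*, *Eef1a1* and *Eef2* overlap.

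Of the factors that join the ribosomal subunits or act beside them, *Eif5b*, *Eif5a* and *Eif6* were tested, and none separated the genotypes. *Eif5a* was at 360, 384 and 346 CPM in WT and 331, 392 and 374 CPM in *Sirt7* KO livers, a log2 fold change of 0.0084 ± 0.14 with a 95% interval of -0.31 to 0.33 in edgeR's fit. *Eif6*, which keeps the large subunit from joining too early, was at 110, 92.3 and 66.8 against 79.9, 79.9 and 71.1 CPM, a log2 fold change of -0.22 ± 0.19 that was -0.052 without WT mouse 1 and -0.39 without WT mouse 3. *Eif5b*, the GTPase of subunit joining, was at -0.097 ± 0.13.

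Among the 7 tested genes listed as elongation factors, which include *Eef1e1* at -0.12 ± 0.25, 6 lay below 0, with a median of -0.14. The genotypes overlapped for all 7. *Eef1a1* was at 1525, 1489 and 1446 CPM in WT and 1248, 1451 and 1357 CPM in *Sirt7* KO livers, a log2 fold change of -0.14 ± 0.15. *Eef2* was at 667, 606 and 553 against 513, 535 and 554 CPM, where *Sirt7* KO mouse 3 lay just above WT mouse 3, and its log2 fold change was -0.19 ± 0.14. The exchange factor subunits of eEF1B, *Eef1d*, *Eef1g* and *Eef1b2*, were at -0.25 ± 0.14, -0.15 ± 0.15 and -0.13 ± 0.14, and *Eefsec*, which delivers selenocysteine, at 0.041 ± 0.17. Transcripts of *Eef1a1* and *Eef1g* share 49.8% and 47.6% of their words of 31 bases with other genes, chiefly processed pseudogenes, which received few reads.

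*Eef2k*, the kinase that inhibits eEF2, was at 3.22, 2.90 and 4.22 CPM in WT and 3.48, 5.09 and 5.59 CPM in *Sirt7* KO livers. *Sirt7* KO mouse 1 lay within the WT range, and the log2 fold change was 0.45 ± 0.32. Of the methyltransferases of the elongation factors 4 were tested and 2 of them lay below 0. *Eef1akmt1* could not be compared, since it was listed at 0 in WT mouse 3 and *Sirt7* KO mouse 1 and between 5.62 and 8.19 CPM in the other 4 mice.

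**Figure D5:**
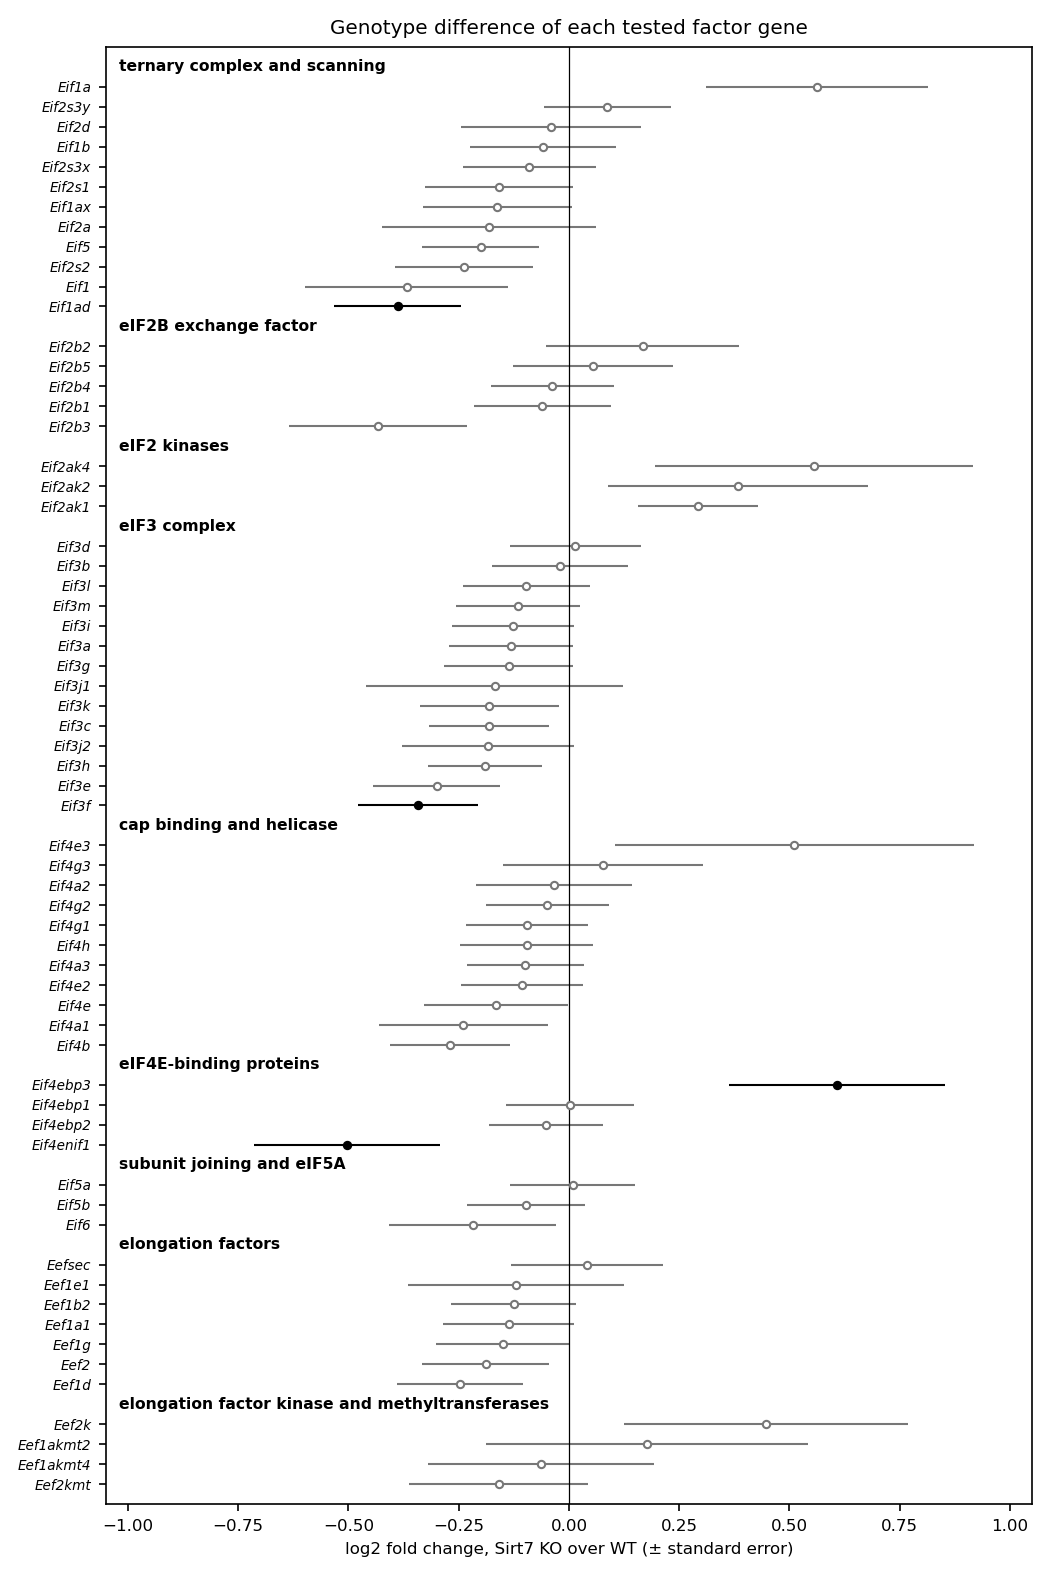
Log2 fold change, *Sirt7* KO over WT, with its standard error from edgeR (horizontal axis) for 63 of the 64 tested factor genes, grouped by role; *Eef1akmt1*, with a standard error of 1.27, is left out. Filled points mark the 4 genes with an unadjusted p under 0.05. Left of 0 lie 13 of the 14 eIF3 subunits and 6 of the 7 genes listed as elongation factors.

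The surrounding genes of translation lay on both sides of 0. Of 62 genes in 6 lists covering termination and recycling, poly(A)-binding proteins, the eIF2 phosphatase, mTORC1 and its kinases, the enzymes that modify eIF5A and eEF2, and mitochondrial factors, 59 were tested. Their median log2 fold change was -0.0054, with 30 below 0. None was called, and 4 had an unadjusted p under 0.05 in edgeR's test, 1 lower and 3 higher in *Sirt7* KO livers, or 6.78% of the pathway genes where 11.3% of all genes did so. Without *Sirt7* KO mouse 1 there were 13 (21.7%), where 17.1% of all genes did so. *Mknk2*, a kinase that phosphorylates eIF4E, was the lower one, at 77.8, 69.7 and 80.6 CPM in WT and 42.5, 61.9 and 52.8 CPM in *Sirt7* KO livers (log2 fold change -0.54 ± 0.17, adjusted p 0.27 in edgeR's test).

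The 3 higher genes belonged to different lists. *Sesn3*, a sestrin that restrains mTORC1, was at 3.64, 2.09 and 2.07 CPM in WT and 4.21, 5.62 and 8.38 CPM in *Sirt7* KO livers, a log2 fold change of 1.22 ± 0.38 with an adjusted p of 0.27 in edgeR's test. *Pdcd4*, an inhibitor of eIF4A, was at 30.9, 30.1 and 39.1 against 51.6, 45.8 and 42.8 CPM, a log2 fold change of 0.48 ± 0.16 with an adjusted p of 0.29 in edgeR's test. *Tufm*, the mitochondrial counterpart of eEF1A, was at 67.0, 70.9 and 68.5 CPM in WT and 79.8, 94.3 and 90.7 CPM in *Sirt7* KO livers, a log2 fold change of 0.36 ± 0.13 with an adjusted p of 0.36 in edgeR's test. In all 3 the genotypes did not overlap.

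Of the 11 mitochondrial translation factors 9 lay above 0, with a median of 0.18, though on total reads 6 did, with a median of 0.067. Of these genes 3 (*Tufm*, *Gfm1* and *Mtrf1*, the last 2 named after their values were seen) were higher in every *Sirt7* KO liver, where 8.74% of all tested genes were. *Gfm1*, a mitochondrial elongation factor G, was at 53.2, 50.5 and 55.0 CPM in WT and 62.6, 69.9 and 59.5 CPM in *Sirt7* KO livers. The median was 0.12 for the hypusine and diphthamide enzymes (9 tested; -0.0020 on total reads), -0.11 for mTORC1 and its kinases (15), -0.089 for termination and recycling (8), 0.0029 for poly(A)-binding proteins and their partners (8) and 0.0029 for the eIF2 phosphatase and its partners (8).

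The files are per transcript, so the share of each gene's reads on transcripts not annotated as coding could be followed for the 40 factor genes with at least 200 reads in every mouse and at least 1 such transcript. The genotypes did not overlap for 2 of them (5%), 1 in each direction, and each had p = 0.1 in a two-sided exact permutation test, the smallest possible, with an adjusted p of 1. The same share was not computed for other genes, so this count has no background to be read against. *Eif1* was the one with a sizeable share, at 34.4, 38.5 and 32.3% of its reads in WT and 29.9, 27.6 and 26.5% in *Sirt7* KO livers, mostly on the short transcript Eif1-202. For *Eif3m* the share was at most 0.20% in any liver. *Eif4ebp1* and *Eif4a2* placed the larger part of their reads on such transcripts, 65.2 ± 1.58% and 56.4 ± 6.01% in WT and 65.9 ± 1.77% and 54.9 ± 5.35% in *Sirt7* KO livers (SD, n = 3). The shares are Salmon's estimates for overlapping transcripts, and no read that spans a distinguishing junction was examined.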

How the data were processed

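The authors trimmed reads with Trim Galore 0.6.5 and quantified them against the mouse transcriptome of GRCm38 with Salmon 1.2.1, and deposited, per mouse and transcript, estimated counts, which are not normalized, and TPM. The transcript annotation release was not given in the sources used here. Expected counts deposited per transcript were summed per gene of GENCODE M21 (140992 transcripts, 1201 without a gene left out) and rounded. edgeR 4.0.16 (R 4.3.3; TMM, filterByExpr with minimum count 10, quasi-likelihood test) was fitted to all 12524 genes that passed, with Benjamini-Hochberg adjustment over them. A call needed an adjusted p under 0.05 and a fold change over 1.5. DESeq2 1.42.0 was an alternative. Values of single mice were compared by exact permutation tests (scipy 1.17.1). Steps were tested on simulated data. Library preparation did not mark strand, so overlapping genes on opposite strands cannot be separated, and depth covers counting error only. Mice of a genotype differed by more than sampling noise and each counted as 1 sample.

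The factor genes, role and pathway lists were chosen with earlier results of these data known. Named genes were those with an unadjusted p under 0.05, the 5 largest and 5 smallest log2 fold changes, the 5 highest TPM means, and 19 factors named for their role; pathway genes with an unadjusted p under 0.05; and, for isoforms, up to 5 genes with the largest separated difference in share. Other genes were named after their values were seen. Alternatives were other scalings (RLE, upper quartile, total counts), other filters, length offsets, DESeq2, the replicate number as a block, and leaving out each mouse. Addition of *AC115631.1*, *Eif3j2* and *Eif4a-ps4* reads to a factor was chosen after seeing the data.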

Additional observations from a re-analysis of the deposited data

How the results depend on the processing

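No factor gene was called under any alternative (RLE, upper quartile or no scaling, other filters, length offsets, DESeq2, the replicate block, leaving out any mouse). Their median log2 fold change, -0.10, became -0.21 on total counts, where the median of all genes was -0.11, and ranged from -0.14 to -0.079 when 1 mouse was left out. The number at an unadjusted p under 0.05 was 4, or 6.25% of those tested against 11.3% of all genes. It was 7 on total counts (10.9% against 12.1%) and 2 with DESeq2 (2.99% against 5.16%). It ranged from 1 to 7 when 1 mouse was left out. There were 2 without WT mouse 1 (3.1% against 9.20%), 1 without WT mouse 2 (1.6% against 8.95%) and 7 without *Sirt7* KO mouse 1 (10.9% against 17.1%). Of the 4 genes of the full fit, 0, 1 and 2 were among these. The number whose genotypes do not overlap, 9, was 14 with upper quartile scaling, 19 on total counts, 17 with DESeq2 and 16 with edgeR under length offsets (21.9%, 29.7%, 25.4% and 25% of those tested, against 17.2%, 18.5%, 9.76% and 16.2% of all genes), and 13 to 21 without 1 mouse, where 2 mice against 3 overlap less often by construction (23.7 to 36.4% of all genes did not overlap). The isoform count, 2 of 40 genes, was 4 to 6 of 40 without 1 mouse, where overlap is again rarer by construction. Its share over other genes was not computed. The pathway count at an unadjusted p under 0.05 was 4 (6.78% of those tested against 11.3% of all genes). It was 8 with length offsets in edgeR (13.56% against 10.52%). Without 1 mouse it was 3 to 13, with 13 without *Sirt7* KO mouse 1 (21.7% against 17.1%). Except where stated, the cause was not tested.

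Among named genes, only log2 fold changes near 0 reversed. *Eif2s3y* was at -0.016 on total counts, *Eif4a2* at -0.18 to 0.13 without 1 mouse (0.13 without WT mouse 3), and *Eif4g1* at 0.023 with DESeq2 and 0.016 with edgeR under length offsets. *Eif4ebp1* was at -0.0074 with upper quartile scaling, -0.11 on total counts, -0.0015 with a mean of at least 50 counts, and -0.078 to 0.085 without 1 mouse. *Eif5a* was at -0.0024 with upper quartile scaling, -0.10 on total counts, and -0.045 to 0.077 without 1 mouse. With the replicate number as a block, 4 factor genes had an unadjusted p under 0.05 (3 of them the same genes), 9 did not overlap, 0 were called and the median was -0.11. Mice of the same number correlated at 0.065, 0.080 and -0.044, and mice of different numbers at between -0.10 and 0.049. Whether mice of the same number had anything else in common was not tested.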
